A study of Mus musculus with 8 samples.

Results

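The genes of prohormone processing and the granins were examined as 10 symbols of the deposited count table, which holds 32531 gene symbols: the proprotein convertases Pcsk1 and Pcsk2, the carboxypeptidase Cpe, the convertase partners Pcsk1n and Scg5, and the granins Chga, Chgb, Scg2, Scg3 and Vgf. They were chosen by symbol, and all 10 were found and passed the filter on low counts. Islet RNA was compared between 4 control and 4 β-tetO-NICD libraries, called NICD libraries here. All 8 samples carried RIP-Cre, in which a rat insulin promoter drives Cre, and Rosa26-rtTA on a mixed C57BL/6J, 129X1/SvJ and BALB/c background, and all had received doxycycline (Dox) for 8 weeks. The groups differed by the tetO-NICD transgene, which in the presence of Dox yields the intracellular domain (NICD) of Notch1, its signalling fragment, in cells where the insulin promoter has been active. No source used here states the age of the sequenced mice.

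Islet hormones are made as larger precursors that are cut inside secretory granules. The convertases cleave at pairs of basic residues, and carboxypeptidase E then trims the basic residues left at the new ends. The enzyme made from Pcsk1 acts mainly in β cells, where it begins the conversion of proinsulin, whereas the enzyme of Pcsk2 acts in both α and β cells and makes glucagon from proglucagon. Pcsk1n encodes proSAAS, an inhibitor of the Pcsk1 enzyme, and Scg5 encodes 7B2, the chaperone and inhibitor of the Pcsk2 enzyme. Granins are acidic proteins that condense in the granule core, are substrates of the same convertases, and are used as markers of endocrine cells in general.

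Libraries held between 21701223 and 26413146 counts, and no member had fewer than 433 counts in any library. Notch1 had 1051 to 1562 counts in controls and 11388 to 36628 in NICD libraries (the transgene encodes a part of Notch1), so every library was on the side that its label gives. Columns 4 and 5 of the NICD group match no single mouse label and were used as libraries of that group. Libraries differed in a length trend, the Spearman correlation across genes between a library's deviation from the mean and the length of the longest annotated transcript. The trend was positive (0.42 to 0.50) in controls 1, 2 and 4 and in NICD library 1, and negative (−0.52 to −0.17) in control 3 and NICD libraries 2, 4 and 5. The Y-linked gene Eif2s3y had 1300 to 1527 counts in controls 2 and 4 and NICD library 5, and at most 1 count in the other 5 libraries, although the study's methods name males for gene expression. Across the 15082 genes tested with edgeR's quasi-likelihood test, 6.76% had an adjusted p under 0.05 (4.19% higher and 2.57% lower in NICD islets), 31.6% had an unadjusted p under 0.05, and the groups did not overlap in 16.1%. DESeq2's Wald test called 18.2%.

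The promoters are shown first because 3 members share a sequence in them. RefSeq windows of 250 bases before the transcription start (GRCm38.p6) were at hand for 8 members, Pcsk1, Pcsk2, Pcsk1n, Chga, Chgb, Scg2, Scg3 and Scg5. The cAMP response element (CRE), TGACGTCA, is the palindromic site of the activator CREB, which couples cAMP to transcription in endocrine cells. It was found in the windows of Pcsk1, Chgb and Scg2, with its first base 78, 72 and 68 bases before the start, and in 1.55% of all 32851 windows. These starts are RefSeq's, whereas the gene spans given further on are GENCODE M21's. By GENCODE the CRE of Pcsk1 lies outside the gene, and those of Chgb and Scg2 lie in an exon, of its 1 transcript and of 1 of 2 transcripts. The sites are printed 5′ to 3′ on the strand of the gene with the CRE in capitals.
Pcsk1, chr13:75089768-75089797, plus strand: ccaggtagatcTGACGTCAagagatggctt
Chgb, chr2:132781559-132781588, plus strand: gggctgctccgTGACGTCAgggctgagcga
Scg2, chr1:79440076-79440105, minus strand: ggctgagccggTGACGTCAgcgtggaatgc

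The shorter core TGACGT (or ACGTCA on the other strand), which every CRE contains, stood in 6.47% of all windows. Among members it occurred outside a CRE once more in Pcsk1, 50 bases before the start, and in Chga and Scg5, where the core is in capitals.
Chga, chr12:102554885-102554914, plus strand: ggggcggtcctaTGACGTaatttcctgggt
Scg5, chr2:113829249-113829278, minus strand: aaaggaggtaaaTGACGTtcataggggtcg

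Motifs of the Notch pathway were searched in the same windows on both strands. TGGGAA, the core bound by RBPJ, the DNA-binding partner of NICD, was found in Scg5 alone among the 8 members and in 21.6% of all windows. The E-box form CACGNG, bound by Hes and Hey repressors, was found in Chga, Chgb and Scg3 and in 23.5% of all windows, and the N-box CACNAG in Chga, Pcsk1 and Scg5 and in 36.7%. The letters CACGAG belong to both of these patterns. A match describes the letters only, and the windows of Pcsk2 and Pcsk1n held none of these motifs. All 8 members were among 11116 tested genes with a window. In any of their windows, 336 of these genes held the CRE and 1218 its core. RBPJ's core was held by 2720, the E-box form by 4221 and the N-box by 4465.

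Of the 10 members, Pcsk1 passed the threshold, 1 of 10 beside 6.76% of all genes. Its mRNA fell to below the lowest control in all 4 NICD libraries. The other 9 did not pass, 6 with positive and 3 with negative log2 fold changes. The median log2 fold change of the 10 was 0.30, and over all genes tested it was 0.00. The groups did not overlap for Pcsk1, which was lower, or for Scg3, which was higher, beside 7.92% of all genes in the lower and 8.22% in the higher direction.

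**Figure D1:**
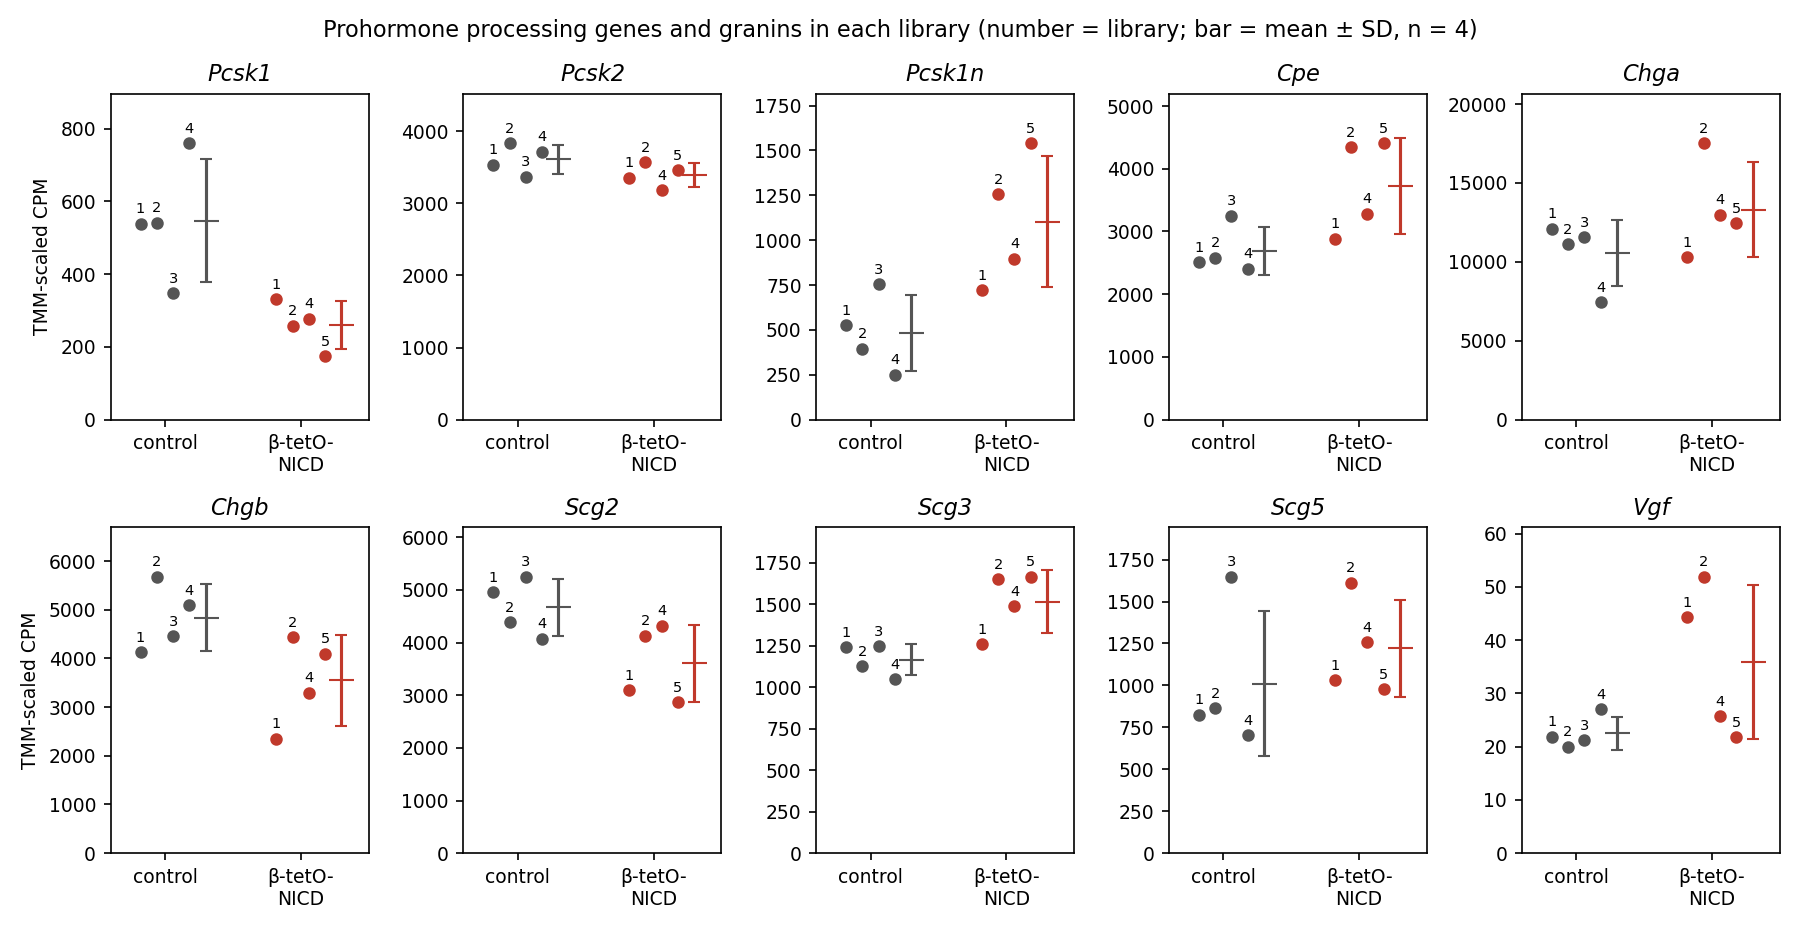
TMM-scaled CPM (counts as a share of the scaled library size, vertical axes from 0) of each of the 10 genes in the 4 control (grey) and 4 NICD (red) libraries, with the library number above each point and the mean ± SD beside each group. Pcsk1 lies between 348 and 760 CPM in controls and between 175 and 331 CPM in NICD islets, while Pcsk2 lies between 3183 and 3832 CPM in all libraries.

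Among the convertases, Pcsk1 (chromosome 13 of GRCm38, 75089826 to 75134861, 14 exons in its longest transcript) had 539, 541, 348 and 760 CPM in controls 1 to 4. It had 331, 258, 278 and 175 CPM in NICD libraries 1, 2, 4 and 5. All 4 NICD values lay below the lowest control, control 3. The mean was 547 ± 168 CPM for controls against 261 ± 64.9 CPM for NICD islets (SD, n = 4 each), 2.10-fold lower. On the log2 scale the fitted change was −1.07, with a standard error of 0.27 and an edgeR adjusted p of 0.0446 (Benjamini-Hochberg, over all genes).

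This call was close to the threshold. It did not pass when control 1, 2 or 4 or NICD library 2, 4 or 5 was left out (log2 fold change −1.10 to −0.87, adjusted p between 0.0818 and 0.133 by the same edgeR test), and it passed without NICD library 1 (0.0131) or without control 3 (0.0272). Of all genes tested, 3.31%, 3.37% and 2.88% passed without control 1, 2 and 4, 2.14%, 2.52% and 4.05% without NICD library 2, 4 and 5, 33.2% without NICD library 1 and 5.78% without control 3. It passed with DESeq2 (adjusted p = 0.00175, beside 18.2% of all genes) and limma-voom (0.0431, beside 7.18%). It also passed in edgeR with median-ratio factors (0.0430, beside 6.94%), upper-quartile scaling (0.0466, beside 7.68%), the most abundant and acinar genes out of the library size (0.0428, beside 6.94%), no filter (0.0424, beside 4.49%) and a stricter filter (0.0405, beside 7.56%). It did not pass with library totals alone as the scaling (edgeR adjusted p = 0.0553, beside 5.65% of all genes) or with the replicate block (0.0582, beside 6.43%). Among the 5 libraries without Eif2s3y counts, 2 controls and 3 NICD, the log2 fold change was −0.61 and did not pass (edgeR adjusted p = 0.401, beside 0.719% of all genes past the threshold). Within libraries of positive length trend, NICD library 1 was lower than controls 1, 2 and 4 by 0.89 on the log2 scale (log2 ratio −0.89), and within those of negative trend NICD libraries 2, 4 and 5 were lower than control 3 (log2 ratio −0.55). Both differences kept the sign of the whole comparison, with 1 library on one side of each. With the class of trend as a batch term the log2 fold change was −0.72 (edgeR adjusted p = 0.122, beside 4.03% of all genes past the threshold), and with an offset for transcript length it was −0.84 and passed (0.0279, beside 10.3%). With the length trend as a covariate it was −0.60 and did not pass (edgeR adjusted p = 0.280, beside 2.85%).

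In islet RNA, fewer β cells and less RNA per β cell cannot be told apart. The 10 β cell markers summed to between 157175 and 197769 CPM in controls and between 72403 and 172163 CPM in NICD libraries, and without Ins1 and Ins2 to between 14982 and 20439 CPM and between 8480 and 15757 CPM, with overlap in both sums. Of these markers Slc2a2, G6pc2 and Ucn3 passed the threshold, all lower, which is 3 of 10 beside 2.57% of all genes, and the other 7 did not. Among these 7, the log2 fold changes were −0.86 for Mafa, −0.72 for Slc30a8, −0.65 for Ins1, −0.59 for Iapp, −0.56 for Ins2, 0.04 for Pdx1 and 0.04 for Nkx6-1, so that 8 of the 10 were negative. The 7 α cell markers summed to between 12133 and 43267 CPM in controls and between 55928 and 70988 CPM in NICD libraries, and without Gcg and Ttr to between 130 and 208 CPM and between 480 and 620 CPM, with no overlap. Of these Irx1, Irx2, Gc and Slc38a5 passed, all higher, which is 4 of 7 beside 4.19% of all genes. The 4 δ cell markers summed to between 2439 and 6588 CPM and between 5087 and 14146 CPM, and Hhex passed, higher, which is 1 of 4 beside the same 4.19%. No β, α or δ marker was at 0. Their part in the values of Pcsk1 and of the other members was not tested.

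Pcsk2 (chromosome 2, 143546156 to 143816285) varied least of the 10 in either group. It had 3532, 3832, 3371 and 3713 CPM in controls 1 to 4 and 3353, 3567, 3183 and 3457 CPM in NICD libraries 1, 2, 4 and 5. The groups overlapped, and 2 NICD libraries lay below the lowest control. The spread was 5.60% of the mean in controls and 4.82% in NICD islets, against 30.8% and 24.9% for Pcsk1. Its log2 fold change was −0.09 (standard error 0.18, edgeR adjusted p = 0.741), and it was 0.11 with the offset for transcript length. The longest annotated transcripts of Pcsk1 and Pcsk2 have 5040 and 4723 bases.

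The ratio of Pcsk1 to Pcsk2 counts within a library does not depend on library size. There were 0.153, 0.141, 0.103 and 0.205 Pcsk1 counts for each Pcsk2 count in controls 1 to 4, and 0.0988, 0.0724, 0.0873 and 0.0506 in NICD libraries 1, 2, 4 and 5. Every NICD ratio lay below every control ratio, although control 3 and NICD library 1 were close. The mean log2 ratio was lower in NICD islets, with a difference of −0.96 (two-sided p = 0.0286 by exact permutation, which no arrangement of 4 and 4 libraries can go below, or 0.0429 adjusted by Benjamini-Hochberg for 3 ratios). With the length offset the difference was −0.93 with the same exact permutation p. Without NICD library 1, 2, 4 or 5 or without control 4 it was between −1.10 and −0.77, and the exact permutation p was 0.0571. Among the 5 libraries without Eif2s3y counts it was −0.55 (exact permutation p = 0.100, the smallest possible there).

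**Figure D2:**
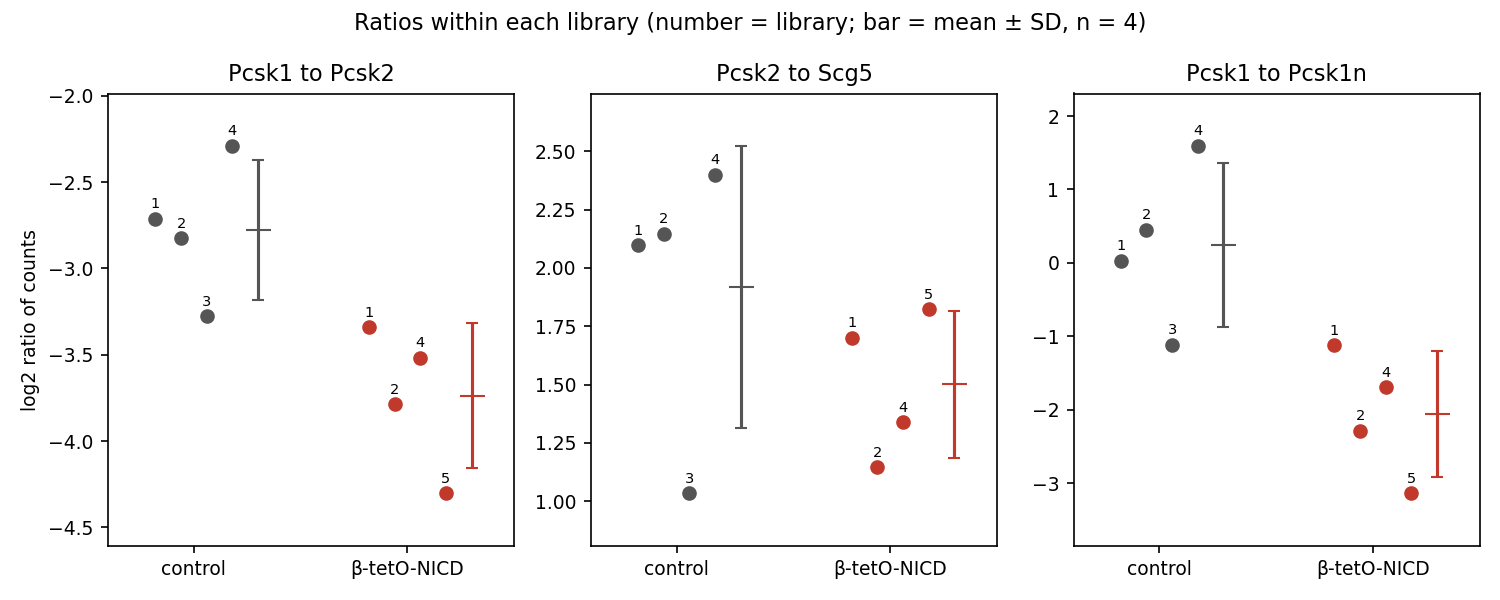
Log2 ratio of counts within each library for Pcsk1 to Pcsk2, Pcsk2 to Scg5 and Pcsk1 to Pcsk1n, in control (grey) and NICD (red) libraries, with library numbers and the mean ± SD of 4 libraries. The groups are separate for Pcsk1 to Pcsk2 (means −2.77 and −3.74) and for Pcsk1 to Pcsk1n (means 0.24 and −2.06), and overlap for Pcsk2 to Scg5.

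Of the convertase partners, Pcsk1n (chromosome X, 7919822 to 7924410) had the highest log2 fold change of the 10. It had 527, 396, 753 and 251 CPM in controls 1 to 4 and 721, 1256, 896 and 1540 CPM in NICD libraries 1, 2, 4 and 5. Control 3 was above NICD library 1, and the other 3 NICD libraries lay above every control. The mean was 482 ± 213 CPM for controls against 1103 ± 367 CPM for NICD islets (SD, n = 4 each). Its log2 fold change of 1.19 (standard error 0.35) did not pass (edgeR adjusted p = 0.0686). It passed without NICD library 1 (edgeR adjusted p = 0.0183), without control 3 (0.0430) and with DESeq2's Wald test (0.00815), which called 18.2% of all genes. With the length trend as a covariate it was 0.61 (edgeR adjusted p = 0.324), and among the libraries without Eif2s3y counts it was 0.59 (0.538). Within the libraries of positive and of negative length trend the log2 ratio of the group means was 0.88 and 0.71.

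Pcsk1 and the gene of its inhibitor thus had fold changes of opposite sign, and the ratio between them spread widely. Controls 1 to 4 had 1.02, 1.37, 0.462 and 3.02 Pcsk1 counts for each Pcsk1n count. NICD libraries 1, 2, 4 and 5 had 0.459, 0.206, 0.310 and 0.114. The groups did not overlap, but control 3 and NICD library 1 were nearly equal. The difference of the mean log2 ratio was −2.30 (two-sided p = 0.0286 by exact permutation, again the lowest value that can arise, or 0.0429 adjusted for the 3 ratios). It was −1.87 with the length offset and −1.16 among the 5 libraries without Eif2s3y counts (exact permutation p = 0.200). Without NICD library 1, 2, 4 or 5 or without control 4 the exact permutation p was 0.0571.

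Scg5 (chromosome 2, 113776362 to 113829121) had 825, 865, 1648 and 704 CPM in controls 1 to 4 and 1031, 1613, 1259 and 977 CPM in NICD libraries 1, 2, 4 and 5. Control 3 was the highest of all 8 libraries, so the groups overlapped, and the other 3 controls lay below every NICD library. Its log2 fold change of 0.27 (standard error 0.30, edgeR adjusted p = 0.534) changed sign with the length offset (−0.12) and with the trend as a covariate (−0.085). It was 0.0044 with the class of trend as a batch term, and within the positive and the negative class the log2 ratio was 0.37 and −0.36. It was 0.61 without control 3, 0.14 without control 4 and 0.11 without NICD library 2. Its longest annotated transcript, with 1208 bases, is the shortest of the 10. There were 4.28, 4.43, 2.05 and 5.28 Pcsk2 counts for each Scg5 count in controls and 3.25, 2.21, 2.53 and 3.54 in NICD libraries, a difference of −0.42 in the mean log2 ratio (exact permutation test, two-sided p = 0.257), and the groups overlapped. With the length offset this difference was 0.24 (exact permutation p = 0.600).

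**Figure D3:**
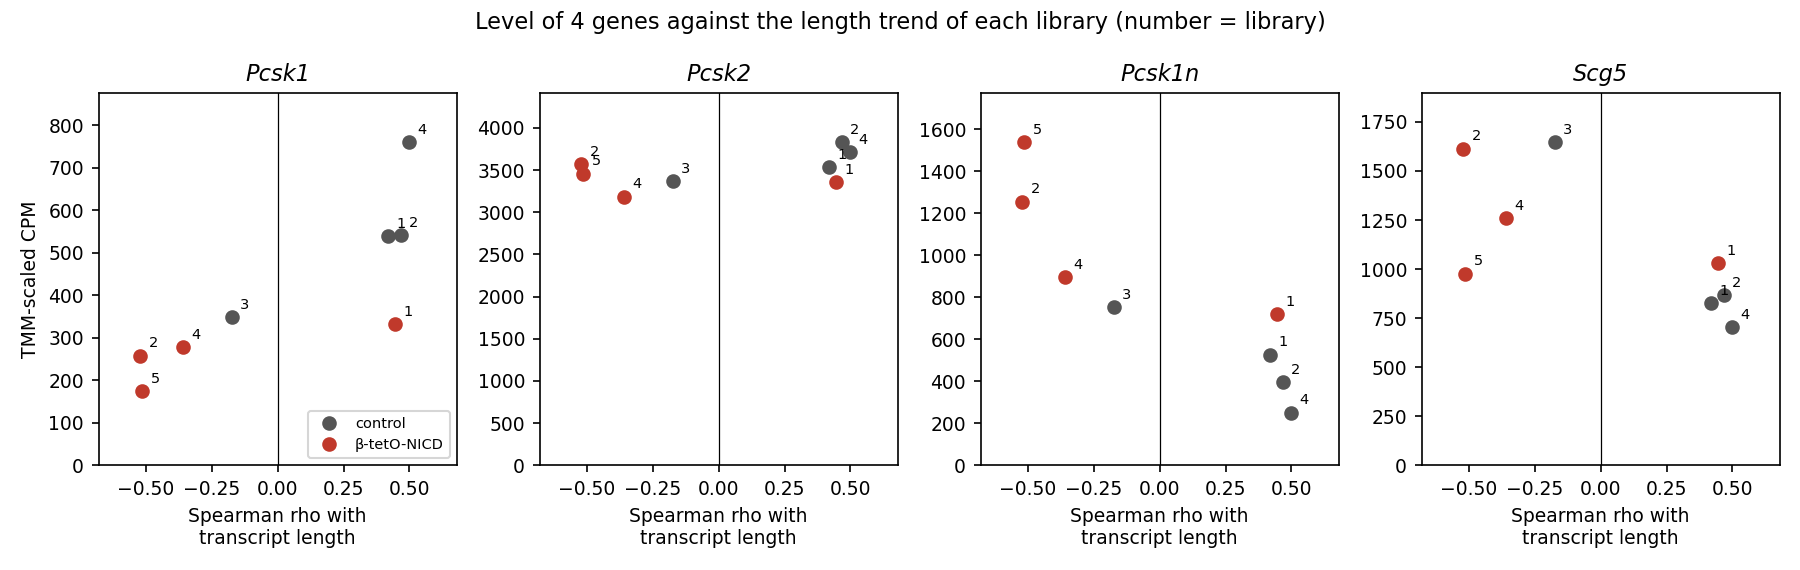
TMM-scaled CPM of Pcsk1, Pcsk2, Pcsk1n and Scg5 (vertical axes from 0) against each library's length trend. Control libraries are grey and NICD libraries red, with their numbers. The trend is the Spearman correlation across genes of a library's deviation from the mean with transcript length. On each side of 0 the NICD libraries lie below the controls for Pcsk1 and above them for Pcsk1n, whereas for Scg5 control 3 (1648 CPM) is above NICD libraries 2, 4 and 5.

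Cpe (chromosome 8, 64592542 to 64693054), the exopeptidase that follows both convertases, had 2506, 2579, 3253 and 2405 CPM in controls 1 to 4. It had 2886, 4347, 3285 and 4407 CPM in NICD libraries 1, 2, 4 and 5. Again control 3 was above NICD library 1, and the other 3 NICD libraries were above all controls. The log2 fold change was 0.47 (standard error 0.22) and did not pass (edgeR adjusted p = 0.175), falling to 0.25 with the length offset and to 0.15 with the length trend as a covariate.

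Chga (chromosome 12, 102554969 to 102565028) encodes chromogranin A and was the most abundant member, with 7446 to 12093 CPM in controls and 10310 to 17516 CPM in NICD libraries. Control 4 was the lowest library and NICD library 2 the highest, with 3 NICD libraries above every control. Its log2 fold change was 0.33 (standard error 0.27, edgeR adjusted p = 0.401) and 0.06 with the length offset. Without NICD library 2 it was 0.18, and without control 4 it was 0.21.

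Chgb (chromosome 2, 132781278 to 132795079), the gene of chromogranin B, had 4132, 5679, 4452 and 5093 CPM in controls 1 to 4. It had 2354, 4441, 3294 and 4101 CPM in NICD libraries 1, 2, 4 and 5, of which 3 lay below every control and library 2 was within the control range. The log2 fold change was −0.45 (standard error 0.25, edgeR adjusted p = 0.237), and −0.29 without NICD library 1. It was −0.55 with the length offset, −0.63 with the class term and −0.76 with the length trend as a covariate, and did not pass in any of these. The 2 classes of length trend differed in size, with a log2 ratio of −1.08 in the positive class, where NICD library 1 is the single library of its group, and −0.17 in the negative class, a difference that was not tested.

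Scg2 (chromosome 1, 79434669 to 79440120) encodes secretogranin II, the precursor of secretoneurin. It had 4956, 4389, 5251 and 4073 CPM in controls 1 to 4 and 3096, 4133, 4317 and 2871 CPM in NICD libraries 1, 2, 4 and 5. The groups overlapped, with libraries 1 and 5 below every control. Its log2 fold change was −0.37 (standard error 0.22, edgeR adjusted p = 0.262) and ranged from −0.54 to −0.27 over 22 alternative fits, none of which passed.

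Scg3 (chromosome 9, 75643189 to 75684056) encodes secretogranin III, which binds chromogranin A and tethers it to the granule membrane. It had 1242, 1128, 1247 and 1049 CPM in controls 1 to 4 and 1257, 1651, 1488 and 1665 CPM in NICD libraries 1, 2, 4 and 5. All NICD libraries lay above the highest control, library 1 by a small margin. With a standard error of 0.18, the log2 fold change was 0.38 and did not pass (edgeR adjusted p = 0.170, and between 0.0596 and 0.747 over the 22 alternatives). It was 0.21 with the length offset, 0.18 with the length trend as a covariate and 0.24 among the libraries without Eif2s3y counts.

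Vgf (chromosome 5, 137026392 to 137033351), a granin-like neuropeptide precursor, was the least abundant member. It had 475, 473, 537 and 666 counts, or 19.97 to 27.0 CPM, in controls 1 to 4, and 933, 1189, 775 and 433 counts, or 21.8 to 51.9 CPM, in NICD libraries 1, 2, 4 and 5. Libraries 1 and 2 lay above every control, whereas 4 and 5 lay within the control range. Its change of 0.67 on the log2 scale (standard error 0.27) did not pass (edgeR adjusted p = 0.132), and it was 0.45 without NICD library 2. The spread within the group was 40.3% of the mean in NICD islets, the widest of the 10 there, and 13.8% in controls.

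**Figure D4:**
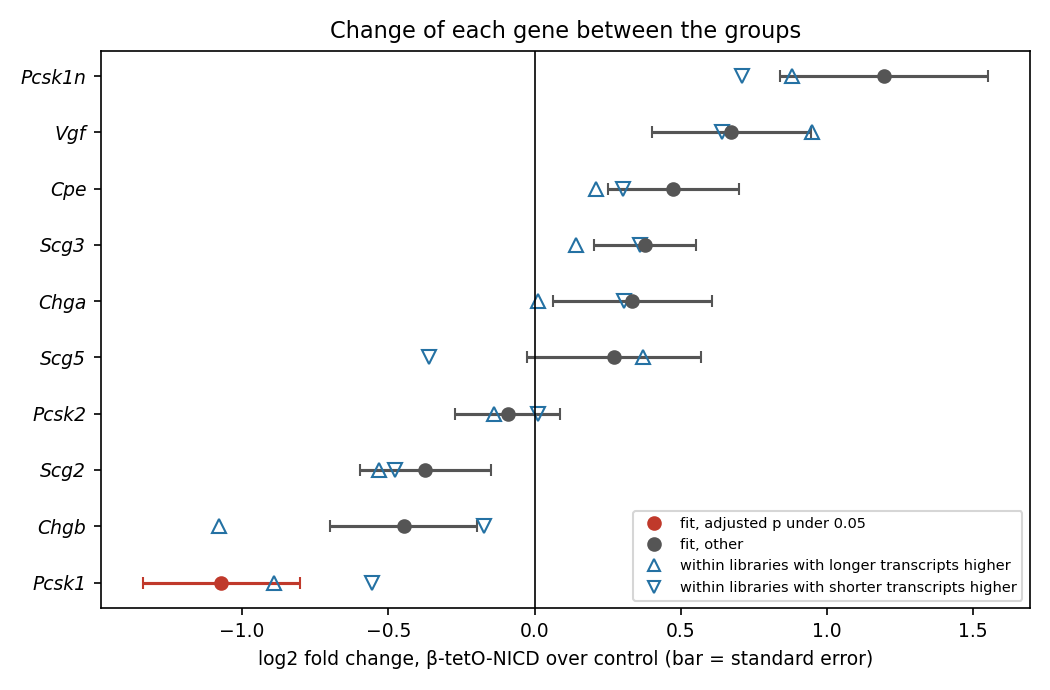
Log2 fold change of each gene with its standard error from the fit of all 8 libraries (circles, red where the adjusted p is under 0.05), and log2 ratio of the group means within the 4 libraries of positive (upward triangles) and the 4 of negative (downward triangles) length trend. Pcsk1 (−1.07) is the single red circle, and Pcsk1n (1.19) is the highest.

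Among the 8 members whose window was searched, the 3 with a CRE, Pcsk1, Chgb and Scg2, had the lowest log2 fold changes (−1.07, −0.45 and −0.37). Chgb and Scg2 did not pass, and their groups overlapped. Chga and Scg5, which hold the shorter core, had log2 fold changes of 0.33 and 0.27. Of 336 tested genes with a CRE in such a window, 2.68% passed the threshold lower and 2.98% higher, beside 2.71% and 4.02% of the 11116 tested genes with a window. A negative log2 fold change was found in 51.2% of the former and 50.1% of the latter. The shares that passed lower and higher were 2.96% and 3.12% of 1218 tested genes with the shorter CRE core, 2.28% and 4.63% of 2720 with RBPJ's core, 3.10% and 3.17% of 4221 with the E-box form, and 2.91% and 4.41% of 4465 with the N-box. These counts are descriptions and were not tested.

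Levels of different genes were compared as CPM for each kilobase of the longest annotated transcript, a scale that approximates the number of transcripts. In controls the order from high to low was Chga (5607 ± 1122), Scg2 (1856 ± 212), Chgb (1766 ± 251), Cpe (1269 ± 182), Scg5 (837 ± 356), Pcsk2 (765 ± 42.9), Scg3 (489 ± 40.1), Pcsk1n (220 ± 97.2), Pcsk1 (109 ± 33.4) and Vgf (7.95 ± 1.09), each as mean ± SD of 4 libraries. Neighbours from Scg2 through Pcsk2 overlapped in their ranges, as did Pcsk1n and Pcsk1, and the other neighbours did not. In NICD islets Cpe (1762 ± 361, SD, n = 4) came second, with a range that overlapped that of Scg2 (1433 ± 289, SD, n = 4), and Pcsk1n (503 ± 167, SD, n = 4) no longer overlapped Pcsk1 (51.7 ± 12.9, SD, n = 4). Chga remained first, and Pcsk1 and Vgf remained the lowest.

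Together the 10 members took 2.69% to 3.23% of all counts in controls and 2.46% to 3.75% in NICD libraries. Within that pool Chga took 29.2% to 39.8% in controls and 39.3% to 45.1% in NICD islets. The share of Chgb was 13.6% to 19.96% in controls and 9.27% to 13.0% in NICD islets, and that of Scg2 was 14.4% to 16.5% and 9.07% to 13.9%. Neither of these shares overlapped between the groups. The shares of Cpe (8.25% to 10.2% and 10.6% to 13.9%), Scg3 (3.69% to 4.11% and 4.25% to 5.26%) and Pcsk1n (0.985% to 2.36% and 2.84% to 4.87%) were higher in every NICD library than in any control. Those of Chga, Pcsk2 (10.6% to 14.5% and 9.19% to 13.2%), Pcsk1 (1.09% to 2.98% and 0.553% to 1.30%), Scg5 (2.72% to 5.16% and 3.09% to 4.15%) and Vgf (0.0654% to 0.106% and 0.0689% to 0.175%) overlapped. In CPM the groups overlapped for Chgb, Scg2, Cpe and Pcsk1n, and did not for Scg3 and Pcsk1. Shares of a pool depend on one another and were not tested.

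The genes around this pathway were read from lists chosen by function. Of 17 other processing enzymes, which include Furin, further convertases, metallocarboxypeptidases and glutaminyl cyclases, 16 were tested and 11 of these had negative log2 fold changes. By edgeR 0 passed, with 3 at an unadjusted p under 0.05 (31.6% of all genes), and DESeq2 called 1 (18.2% of all genes). The most abundant was Pam, the enzyme that amidates peptide ends, with 655 ± 87.2 CPM for controls against 947 ± 171 CPM for NICD islets (SD, n = 4 each, log2 fold change 0.53, edgeR adjusted p = 0.110). Of 17 genes of granule membranes and granule biogenesis, 16 were tested and 8 had negative log2 fold changes. By edgeR 0 passed, with 7 at an unadjusted p under 0.05 (2 higher and 5 lower), and DESeq2 called 5, beside the same 31.6% and 18.2% of all genes. Their most abundant, Resp18, an endocrine granule protein related to Ptprn, had 1119 ± 238 CPM for controls against 2095 ± 515 CPM for NICD islets (SD, n = 4 each, log2 fold change 0.90, edgeR adjusted p = 0.0555).

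Of 14 prohormone substrates, 13 were tested and 9 had negative log2 fold changes. By edgeR 1 passed (6.76% of all genes), 5 had an unadjusted p under 0.05 (31.6%) and DESeq2 called 4 (18.2%). The 1 that passed was Ucn3, the urocortin 3 precursor of mature β cells, which was lower (281 ± 86.0 CPM in controls and 130 ± 27.1 CPM in NICD islets, SD, n = 4 each, log2 fold change −1.11, edgeR adjusted p = 0.0274). Proinsulin is cut by both convertases, and Ins1 and Ins2, near-identical genes whose reads the counting could have divided, had log2 fold changes of −0.65 and −0.56 that did not pass. Gcg, whose product is a substrate of the Pcsk2 enzyme in α cells, had 22653 ± 12856 CPM for controls against 61254 ± 6192 CPM for NICD islets (SD, n = 4 each), with no overlap between the groups (log2 fold change 1.44, edgeR adjusted p = 0.0622). The log2 fold change of Pcsk2 thus stood at −0.09 while 4 α cell markers rose and Ucn3, Slc2a2 and G6pc2 fell.

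Markers of other cells that make granins or surround islets were also read. Of 4 sympathetic neuron markers, 3 were tested, and Th passed, lower, beside 2.57% of all genes (41.9 ± 1.01 CPM in controls and 15.02 ± 2.74 CPM in NICD islets, SD, n = 4 each, edgeR adjusted p = 0.000681). The 8 pan-endocrine transcription factors summed to between 754 and 900.2 CPM in controls and between 570.3 and 819 CPM in NICD libraries. Of these, 2 had positive and 6 negative log2 fold changes. Fev passed, higher, and the others did not, although 4 were lower at an unadjusted p under 0.05, beside 6.76% of all genes past the threshold and 31.6% at that unadjusted p. The 13 acinar markers summed to between 62788 and 125756 CPM in controls and between 52043 and 176677 CPM in NICD libraries. By edgeR 0 of them passed, with 0 at an unadjusted p under 0.05, and DESeq2 called 0, beside 6.76%, 31.6% and 18.2% of all genes. Of the 13 acinar markers, 12 had positive log2 fold changes. With the acinar score as a covariate the log2 fold change of Pcsk1 was −1.09 (edgeR adjusted p = 0.0526, beside 6.58% of all genes past the threshold). Of the 6 duct, 5 endothelial, 2 PP cell, 4 macrophage, 5 stromal and 3 Schwann cell markers, 0 passed by edgeR. At an unadjusted p under 0.05 there were 3 duct and 2 endothelial markers and 0 of the others, and DESeq2 called 3 duct markers and 0 of the others, beside 31.6% and 18.2% of all genes. The duct markers summed to between 199 and 298 CPM in controls and between 222 and 452 CPM in NICD libraries. The part of these cells in the members' values was not tested.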

How the data were processed

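Islet RNA libraries, 4 control and 4 β-tetO-NICD, were analysed from 1 table of counts per gene symbol, which the authors made by pseudoalignment to the GRCm38 mouse transcriptome with Kallisto and deposited as whole counts. Its version, the annotation and the rounding are not given in the sources used here. The deposited table of the authors' own comparison (fold changes, mean expression and p-values) was not used. Sample labels number the β-tetO-NICD group 1 to 4 and the columns 1, 2, 4 and 5, so columns 4 and 5 were assigned to the group only. There were 0 unused sample columns.

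The 15082 genes that reached 10 counts in 4 or more libraries were fitted with edgeR 4.0.16 (R 4.3.3): TMM scaling, quasi-likelihood test, Benjamini-Hochberg adjustment over all genes tested, threshold 0.05. Fold changes are β-tetO-NICD over control. Ratios of 2 genes' counts within a library were compared with two-sided exact permutation tests (70 arrangements). Fits were tested on simulated data. Alternatives were DESeq2 1.42.0, limma-voom (limma 3.58.1), other scalings and filters, acinar and length corrections, a replicate block and leaving out each library. A batch term for the sign of the length trend was chosen after seeing the data. Transcript lengths (GENCODE M21) were found for 14655 genes (97.2%). The length offset is a lowess curve (span 0.3) for each library.

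All 10 members were named, and of the other lists each gene past the threshold or, if none, the most abundant; Gcg and the uncalled β cell markers were added after their values were seen. Members and lists were chosen with earlier results of these data known. A gene of the cell type marker lists is not reported here and was left out of its list's counts and sums. Libraries are separate samples per the labels, and no pair agreed within sampling noise (chi-square per gene at least 31.5). Totals of 21701223 to 26413146 counts put 3 counts at no more than 0.138 CPM; this covers counting error only.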

Additional observations from a re-analysis of the deposited data

Results flagged for a closer look

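The length trend of 2 libraries stood apart from the other 3 of their groups. In control 3 it was −0.17, with a gap to the nearest control of 0.882 of the range of the 4 controls, and NICD library 1 had a value of 0.45, with a gap of 0.833 of the range. Of 30 groups of 4 values checked in this way, 2 passed, and chance gives about 1.5. Control 3 had the lowest Pcsk1 and the highest Pcsk1n and Scg5 values of the controls, and NICD library 1 had the highest Pcsk1 and the lowest Pcsk1n values of its group.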

How the results depend on the processing

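Pcsk1 stayed negative in all 22 alternative fits (log2 fold change −1.23 to −0.60) and passed in 10, and Pcsk1n stayed positive (0.59 to 1.496) and passed in 3. Against 1 member past the threshold, DESeq2 gave 2, and library totals, the acinar covariate, the length covariate, the replicate block, the libraries without Eif2s3y counts and the length-class batch term each gave 0. Leaving out 1 library gave 0 to 2 members. Against 1020 genes in all, DESeq2 gave 2739, the length offset 1556, the class term 608, the length covariate 430 and the libraries without Eif2s3y counts 104. Leaving out 1 library gave 319 to 4954. Without NICD library 1 the calls were 2423 higher and 2531 lower, against 632 and 388. Directions turned for Pcsk2 with the length offset (0.11), for Scg5 with the length offset (−0.12) and the length covariate (−0.085), and for the log2 ratio of Pcsk2 to Scg5 with the length offset (0.24). The cause was not tested.

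Among the 5 libraries without Eif2s3y counts the difference in the log2 ratio was −0.55 for Pcsk1 to Pcsk2 (exact permutation p = 0.100, the smallest possible with 2 against 3) and −1.16 for Pcsk1 to Pcsk1n (exact permutation p = 0.200). Leaving out 1 library gave −1.13 to −0.77 for Pcsk1 to Pcsk2, −0.71 to −0.26 for Pcsk2 to Scg5 and −2.75 to −1.85 for Pcsk1 to Pcsk1n. For Pcsk1 to Pcsk2 and Pcsk1 to Pcsk1n the exact permutation p was then 0.0286, the smallest possible with 3 against 4, without control 1, 2 or 3, and 0.0571 without control 4 or any NICD library.

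The samples share only a number. Same-numbered libraries 1 and 2 correlated at 0.28 and −0.09 in their deviations from the group means. NICD column 4 could not be tied to a numbered sample, so number 4 (0.06) was not paired in the block. With the replicate block, edgeR called 970 genes and 0 members, the adjusted p of Pcsk1 was 0.0582, and the log2 ratios of these numbered pairs differed by −0.80 (Pcsk1 to Pcsk2), −0.70 (Pcsk2 to Scg5) and −1.94 (Pcsk1 to Pcsk1n), with no test. Group and length trend overlap in all but 2 libraries, which limits every value above.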
